A study of Mus musculus with 20 samples.

Results

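The well-expressed long noncoding RNAs (lncRNAs) of LPS/IFNγ-stimulated mouse macrophages were examined across stimulation, loss of inducible nitric oxide synthase (iNOS, encoded by Nos2) and loss of the aldo-keto reductase Akr1a1. The set was selected on the gene counts of the iNOS experiment: its genes had the biotype lncRNA and a mean of at least 5 CPM (each count scaled by its column sum to a common total) across the 12 libraries. Of 11288 lncRNA genes in that count file, 5019 had at least 1 count and 155 met the rule. The first experiment held 12 libraries labelled bone marrow-derived macrophage (BMDM), 3 in each of 4 groups: wildtype (WT) or iNOS knockout (KO), unstimulated or stimulated for 48 h with LPS at 50 ng/mL and IFNγ at 30 ng/mL. The second held 8 libraries of RAW264.7, a mouse macrophage-like line, 2 in each of 4 groups: WT or Akr1a1 KO, unstimulated or treated for 48 h with the same LPS dose and IFNγ at 10 ng/mL. For BMDM work the study describes marrow pooled by genotype from C57BL/6J or iNOS KO mice, so one pool may stand behind the replicates of a genotype. The Akr1a1 KO cells came from CRISPR-edited, single-cell-sorted cells, and the study's methods call the replicates of that experiment independent clones, without saying which library holds which clone. Per the labels, all libraries were made from poly(A)-enriched RNA, and all counts are whole reads per gene.

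An lncRNA gene gives a transcript that is spliced and often polyadenylated like a messenger RNA but is not read into a protein of known function. Some are carriers: their introns or exons release small RNAs, either microRNAs that repress messenger RNAs through a short seed at their 5′ end, or small nucleolar RNAs (snoRNAs) that guide the chemical modification of ribosomal RNA. Others act as the RNA molecule, such as Malat1 and Neat1 in nuclear bodies, or lie beside or across a protein-coding gene and are read together with it. LPS signals through Toll-like receptor TLR4 to NF-κB and interferon factors, IFNγ signals through its own receptor at the cell surface, and together they induce iNOS, which makes nitric oxide.

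The libraries held 15072109 to 18878107 counts in the iNOS experiment and 11876719 to 44583327 in the Akr1a1 experiment, and the 155 lncRNAs took 0.330 to 0.461% and 0.537 to 0.902% of them. Nos2 stood at 10370 to 11533 CPM in stimulated WT and 870 to 912 CPM in stimulated iNOS KO, with no count in unstimulated iNOS KO. Akr1a1 stood at 427 to 675 CPM in RAW264.7 WT and 21.8 to 370 CPM in Akr1a1 KO, so its transcript was lower but not absent. The macrophage markers Adgre1, Cd68, Csf1r, Itgam, Lyz2, Fcgr1, Mertk and Spi1 summed to 8265 to 8722 CPM in unstimulated and 5615 to 5985 CPM in stimulated WT, to 5929 to 6145 CPM in unstimulated and 8848 to 9245 CPM in stimulated iNOS KO, and to 3062 to 9098 CPM over the second file. The sum was thus lower after stimulation in WT and higher after it in iNOS KO. Neutrophil markers summed to at most 1.28 CPM in unstimulated libraries and to between 29.6 and 386 CPM in stimulated ones, with S100a8 at up to 385 CPM, Mpo at up to 1.12 CPM and the others on that list under 1 CPM. Fibroblast markers summed to at most 14.7 CPM. The part of these marker differences in the lncRNA values was not tested. The cell type of the first experiment is unsettled: the labels say BMDM, whereas the sequencing methods of the study name RAW264.7 cells, and Pycard, which RAW264.7 cells are known to lack, was at or below 0.832 CPM in all 20 libraries. Ddx3y on chromosome Y was at 13.5 to 55.1 CPM in the first file and had no count in the second. The study's methods call the replicates of the first experiment biological, but neither they nor the labels name the culture or animal behind a library, so p-values measure the spread between these libraries. Stimulated iNOS KO replicate B stood apart from replicates A and C, and replicate B of both unstimulated RAW264.7 groups carries a title that says stimulated against a treatment field that says unstimulated; both were kept as unstimulated, and counts without them are given where they differ.

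Unless a level is said to be the rule's own CPM, levels below are CPM scaled by the trimmed mean of M values (TMM), fold changes are log2 with their standard error (SE), and p-values are Benjamini-Hochberg adjusted over all genes tested with the quasi-likelihood F test of edgeR.

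The microRNAs carried by these lncRNAs are shown first, since their host transcripts held some of the largest responses in the set. Mir155hg carries miR-155, a microRNA known for its induction in activated macrophages. Mir22hg carries miR-22, and Gm14636 spans Mir221 and Mir222. Mir17hg carries the growth-linked miR-17 to miR-92a cluster and Dleu2 carries miR-15a and miR-16. The mature sequences below are RefSeq entries on GRCm38.p6, written 5′ to 3′ with the seed (bases 2 to 8) in capitals.
miR-155-5p (chr16:84714143-84714165, + strand): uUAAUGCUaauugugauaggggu
miR-155-3p (chr16:84714182-84714202, + strand): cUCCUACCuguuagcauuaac
miR-22-3p (chr11:75463772-75463793, + strand): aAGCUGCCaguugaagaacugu
miR-221-3p (chrX:19146307-19146329, − strand): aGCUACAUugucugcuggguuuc
miR-222-3p (chrX:19146901-19146923, − strand): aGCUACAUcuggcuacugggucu
miR-17-5p (chr14:115043684-115043706, + strand): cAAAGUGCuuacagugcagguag
miR-20a-5p (chr14:115044183-115044205, + strand): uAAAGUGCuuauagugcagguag
miR-19a-3p (chr14:115044048-115044070, + strand): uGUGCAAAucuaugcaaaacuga
miR-19b-3p (chr14:115044358-115044380, + strand): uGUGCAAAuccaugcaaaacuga
miR-15a-5p (chr14:61632075-61632096, − strand): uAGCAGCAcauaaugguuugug
miR-16-5p (chr14:61631936-61631957, − strand): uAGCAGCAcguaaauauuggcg

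Seeds were shared within this group of sequences: GCUACAU by miR-221-3p and miR-222-3p, AAAGUGC by miR-17-5p and miR-20a-5p, GUGCAAA by miR-19a-3p and miR-19b-3p, and AGCAGCA by miR-15a-5p and miR-16-5p. The libraries count the poly(A) host transcript, not the mature microRNA, so the values that follow are levels of the hosts.

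Mir155hg stood at 0.449, 0.556 and 0.352 CPM in unstimulated WT and at 111, 73.2 and 70.4 CPM in stimulated WT. It stood at 1.2, 0.448 and 0.293 CPM in unstimulated iNOS KO and at 69.0, 41.3 and 74.4 CPM in stimulated iNOS KO. Every stimulated library lay above every unstimulated one, while the stimulated libraries of the genotypes overlapped. The log2 change on stimulation was 7.53 ± 0.36 in WT (adjusted p = 8.27e-12) and 6.55 ± 0.34 in iNOS KO (adjusted p = 4.31e-11), and stimulated iNOS KO differed from stimulated WT by −0.46 ± 0.21 (adjusted p = 0.0778). In RAW264.7 the level went from 0.944 and 1.05 CPM to 27.1 and 78.3 CPM in WT, and from 0.55 and 0.765 CPM to 54.5 and 40.9 CPM in Akr1a1 KO. The log2 changes there were 5.69 ± 0.53 (adjusted p = 9.42e-05) and 6.11 ± 0.57 (adjusted p = 8.15e-05).

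Mir22hg stood at 14.0, 14.6 and 11.2 CPM in unstimulated WT, 114, 89.9 and 92.3 CPM in stimulated WT, and 48.0, 39.7 and 52.9 CPM in stimulated iNOS KO. The stimulated groups did not overlap: the log2 change on stimulation was 2.90 ± 0.13 in WT and 1.73 ± 0.13 in iNOS KO, and the responses differed by −1.16 ± 0.18 (adjusted p = 8e-05). RAW264.7 WT rose from 3.92 and 3.83 CPM to 69.5 and 129.9 CPM, a log2 change of 4.69 ± 0.31 (adjusted p = 1.53e-05). Mir22hg overlaps Tlcd2 on the same strand, a neighbour that rose by 3.67 on the log2 scale in WT, and reads of such a pair may be shared between them. Gm14636, over Mir221 and Mir222, rose by a log2 of 1.39 ± 0.19 in WT (adjusted p = 7.07e-06), with 0.26 ± 0.19 in iNOS KO (adjusted p = 0.274) and a difference of responses of −1.13 ± 0.27 (adjusted p = 0.00323). Mir17hg went the other way in WT and fell by 1.65 ± 0.27 (adjusted p = 4.39e-05), against −0.70 ± 0.23 in iNOS KO (adjusted p = 0.0175, under the fold limit). Of the 4 lncRNAs in the set from a 17-gene list of microRNA hosts, namely Mir155hg, Mir22hg, Mir17hg and Dleu2, 2 rose and 1 fell in WT and 2 rose in iNOS KO. Of all genes 19.7% rose and 15.7% fell in WT, and 14.0% rose in iNOS KO. Mir155hg reached a group mean of 5 CPM only in stimulated groups, so the rule itself favoured its rise.

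The 155 lncRNAs covered a wide range of levels and most lacked a descriptive name. Their mean CPM under the rule ran from 5.03 to 523 with a median of 9.69, and 119 had a systematic or clone name. The lncRNAs just inside the threshold were Gm33989 at 5.25, Gm50419 at 5.16 and 5430416N02Rik at 5.03 CPM, and those just outside were E230013L22Rik and 2810402E24Rik at 4.95 and E330020D12Rik at 4.85 CPM. In the mean of each group, 74 reached 5 CPM in all 4 groups, 36 in stimulated groups only and 15 in unstimulated groups only. In the RAW264.7 file 128 of the 155 also had a mean of at least 5 CPM and 5 were under 1 CPM. Their gene models ran from 326 to 93092 bases with a median of 2875, and per kilobase the highest levels were 220 CPM per kb for Gm46620, 138 for Gm43351, 89.3 for ENSMUSG00000120992, 78.5 for 4930430E12Rik and 74.9 for Malat1. By position, 50 overlapped a protein-coding gene on the opposite strand and 10 overlapped one on the same strand alone. Among the rest, which overlapped none, 20 started head to head with one within 2000 bases and 75 did not. Those 75 are called without overlap below. The sources used here do not state the strand setting of the counting, so values of the overlapping lncRNAs may include reads of their partners.

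**Figure D1:**
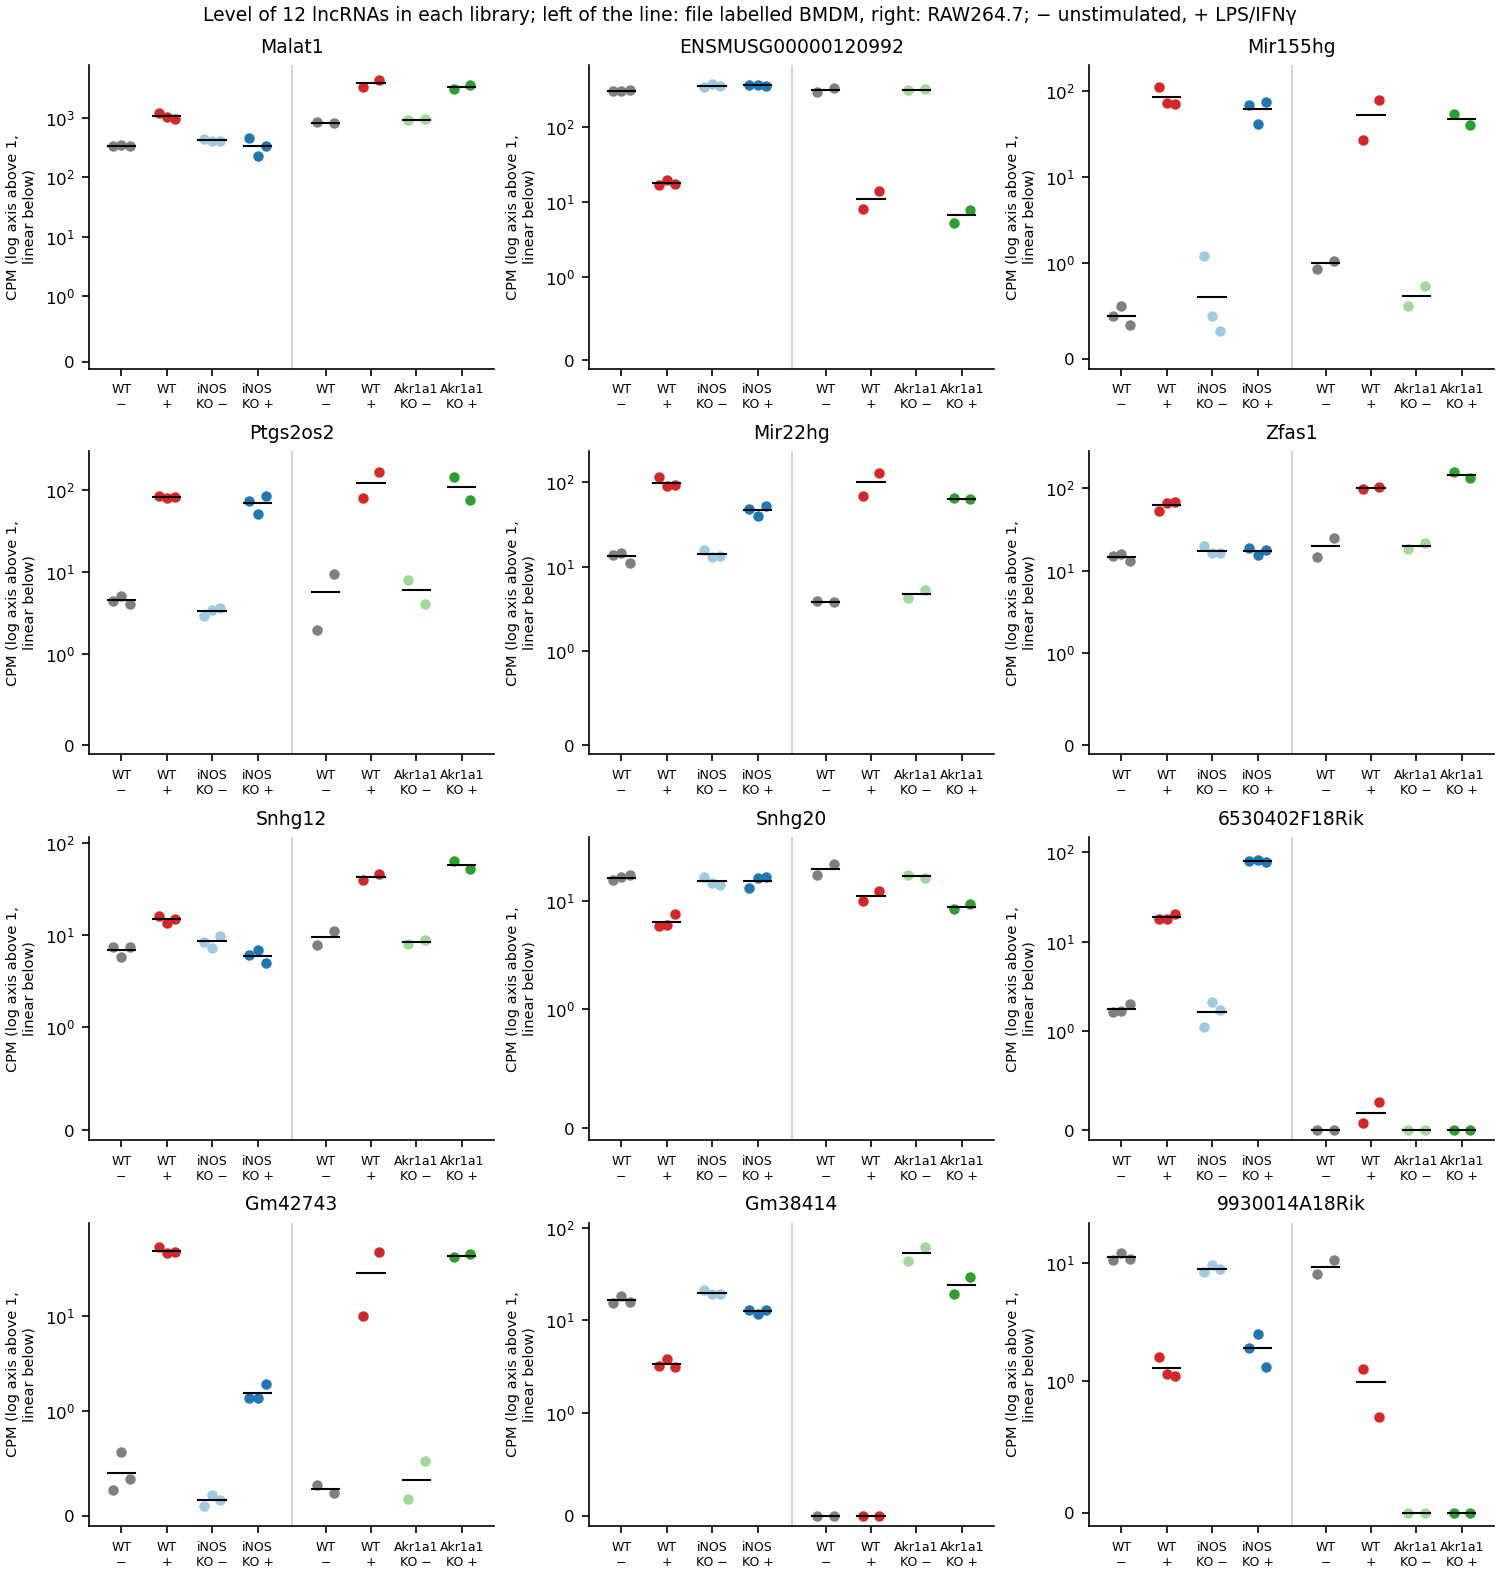
TMM-scaled CPM of 12 lncRNAs in each of the 20 libraries (points; bars are group means), on an axis that is logarithmic above 1 CPM and linear below, with the file labelled BMDM left of the line and RAW264.7 right of it. Mir155hg and Ptgs2os2 are high in all stimulated groups, ENSMUSG00000120992 is low in every stimulated group except iNOS KO, and Gm38414 is at 0 in the 4 RAW264.7 WT libraries.

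Stimulation of WT cells changed 94 of the 155 lncRNAs, 68 higher and 26 lower (adjusted p under 0.05 and an absolute log2 change over 1). Of all genes tested 35.4% met that call, 19.7% higher and 15.7% lower. The set's median log2 change was 0.79, against 0.07 over all genes. Because the rule averaged over these libraries, a transcript that is high in the stimulated groups alone could enter through them, and all 36 of the lncRNAs that reached 5 CPM only when stimulated were called higher; these shares are therefore descriptions. Of the called lncRNAs, 93 of 94 had no overlap between the libraries of the groups. The call itself favours such separation and the share over all called genes was not computed, so this count adds no support.

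The largest rise was in Gm16685, which lies across Il7 on the opposite strand and has been linked to NF-κB signalling. It stood at 0.0498, 0 and 0 CPM in unstimulated WT, a single count, and at 128, 122 and 140.1 CPM in stimulated WT. The ratio was 7155-fold with a counting interval of 1284 to 282663. In stimulated iNOS KO it stood at 35.4, 26.7 and 39.9 CPM, below every stimulated WT library, with a log2 difference of −1.93 ± 0.13 (adjusted p = 1.66e-09). In RAW264.7 it had no count in 4 unstimulated libraries and reached 0.818 and 1.86 CPM in stimulated WT and 4.29 and 3.58 CPM in stimulated Akr1a1 KO. That is at least 28.3-fold higher in WT and at least 127-fold higher in Akr1a1 KO over a floor of 3 counts in the group.

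The other large rises were Gm50419, with no count in unstimulated WT and 6.65, 6.75 and 7.56 CPM after stimulation, at least 128-fold higher, ENSMUSG00000120851 at a log2 change of 8.35, and Gm46189, 332-fold higher with a counting interval of 113 to 1614. The largest falls were in ENSMUSG00000120992 at −4.08 ± 0.07, 4933404O12Rik at −3.77 ± 0.13, 9930014A18Rik at −3.11 ± 0.19, Kcnq1ot1 at −2.30 ± 0.28 and Gm38414 at −2.29 ± 0.12. Lack of overlap between the groups was a condition for naming these 5. Kcnq1ot1, an imprinted antisense RNA, stood at 7.68, 8.28 and 7.16 CPM before and 1.32, 1.08 and 2.29 CPM after stimulation.

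Stimulation of iNOS KO cells changed 65 of the 155 lncRNAs, 47 higher and 18 lower. The share of all genes called was 22.8%, 14.0% higher and 8.78% lower. The rule averaged over these libraries too, and 31 of the 36 lncRNAs at 5 CPM only when stimulated were called higher. These shares are therefore also descriptions. Set side by side, 45 lncRNAs were called higher in both genotypes and 9 lower in both, 23 higher and 17 lower in WT alone by call, 2 higher and 9 lower in iNOS KO alone by call, and 50 in neither. Being called in one genotype and not the other is not a test, so the difference of the responses was tested for each lncRNA. It passed (adjusted p under 0.05, no fold limit) for 89 of 155, 32 with a higher and 57 with a lower response in iNOS KO, where 35.4% of all genes passed, 20.0% higher and 15.4% lower. Among protein-coding genes of at least 5 CPM the share was 55.8%, close to the 57.4% of the lncRNAs, but the directions differed. It was 32.3% higher and 23.4% lower for those genes, against 20.6% and 36.8% for the lncRNAs. The 36 lncRNAs at 5 CPM only when stimulated gave 5 higher and 17 lower responses. The part of the rule in that direction was not tested. Of the 23 called higher in WT alone, 21 had a lower response in iNOS KO by this test, and of the 17 called lower in WT alone, 16 had a higher one. These lncRNAs were picked by their calls in the same libraries. The direction of the difference was thus largely set in advance, and the counts are descriptions. Without stimulated iNOS KO replicate B, 62 lncRNAs were called on stimulation of iNOS KO and 94 differed in response.

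The largest rises in iNOS KO were in Gm50419, with no count before and 18.1, 13.4 and 18.6 CPM after stimulation, at least 345-fold higher, and in Gm13571, 2563-fold higher with a counting interval of 459 to 101274. Gm16685 followed at a log2 change of 8.88 ± 0.29, ENSMUSG00000120851 at 383-fold with an interval of 131 to 1861, and A530040E14Rik at 6.73 ± 0.20. The largest falls in iNOS KO were in 9930014A18Rik at −2.23 ± 0.18, Gm33989 at −1.99 ± 0.30, Kcnq1ot1 at −1.71 ± 0.23, 4933404O12Rik at −1.69 ± 0.10 and ENSMUSG00000121059 at −1.41 ± 0.18. Of the 5 that rose most, 3 were also among the 5 largest rises in WT, namely Gm50419, Gm16685 and ENSMUSG00000120851.

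**Figure D2:**
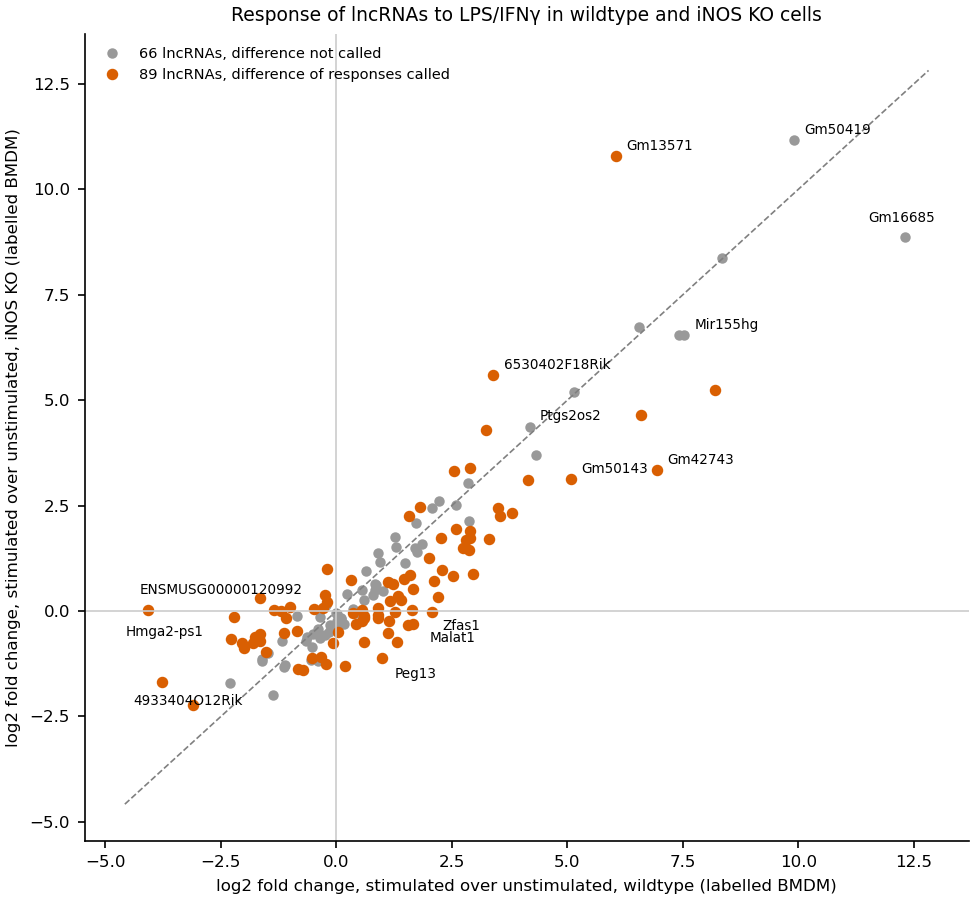
Log2 change on LPS/IFNγ stimulation of each of the 155 lncRNAs in WT (x axis) and in iNOS KO (y axis), with the 89 whose responses differed in colour and equal responses on the dashed line. ENSMUSG00000120992 and Hmga2-ps1 sit at strong falls in WT and near 0 in iNOS KO, while Mir155hg and Ptgs2os2 lie close to the diagonal.

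In stimulated cells, 53 lncRNAs differed between iNOS KO and WT, 19 higher and 34 lower in iNOS KO. Over all genes 19.6% differed, 10.7% higher and 8.87% lower. Among the 36 lncRNAs that reached 5 CPM only when stimulated, 2 were higher and 16 lower. The rule used these same libraries and let such lncRNAs in, so these counts are descriptions. The largest difference upward was ENSMUSG00000120992, which starts 570 bases from Vars, the valyl-tRNA synthetase gene, in the opposite direction. It stood at 293, 296 and 308 CPM in unstimulated WT, 16.9, 19.2 and 16.9 CPM in stimulated WT, 337, 363 and 350.4 CPM in unstimulated iNOS KO and 355, 362 and 347 CPM in stimulated iNOS KO. The stimulated WT libraries alone were low. The log2 change was −4.08 ± 0.07 in WT and 0.02 ± 0.06 in iNOS KO, and the responses differed by 4.10 ± 0.09 (adjusted p = 1.34e-14). Vars itself fell by 3.08 on the log2 scale in WT and was higher by 2.34 in the stimulated iNOS KO cells. In RAW264.7 the lncRNA fell from 288 and 326 CPM to 7.88 and 13.9 CPM in WT and from 302 and 313 CPM to 5.23 and 7.85 CPM in Akr1a1 KO.

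Hmga2-ps1 showed the same order of groups, at 30.8, 26.4 and 28.3 CPM in unstimulated WT, 4.43, 6.82 and 7.002 CPM in stimulated WT and 27.1, 27.5 and 27.5 CPM in stimulated iNOS KO. Its responses differed by 2.08 ± 0.17 (adjusted p = 5.22e-08). Being listed under the name of a pseudogene, it may share reads with its parent gene. 6530402F18Rik rose in both genotypes and more in iNOS KO, from 1.65, 1.67 and 2.00 CPM to 17.7, 18.03 and 20.2 CPM in WT and from 1.11, 2.09 and 1.71 CPM to 78.6, 81.9 and 78.4 CPM in iNOS KO. The responses differed by 2.21 ± 0.23 (adjusted p = 9.03e-07). It overlaps Ntng2 on the same strand, which rose by 7.20 on the log2 scale in WT.

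The lncRNAs lowest in stimulated iNOS KO relative to stimulated WT were Gm42743 and Gm50143. Gm42743, which overlaps the histone gene H2bc18 on the same strand, stood at 0.249, 0.612 and 0.352 CPM in unstimulated WT, 54.4, 47.1 and 47.6 CPM in stimulated WT and 1.35, 1.37 and 1.91 CPM in stimulated iNOS KO. The stimulated groups were far apart, with a log2 difference of −4.99 ± 0.16 (adjusted p = 1.94e-13). In RAW264.7 it reached 10.1 and 48.1 CPM in stimulated WT and 42.7 and 45.3 CPM in stimulated Akr1a1 KO. Gm50143, within Ccbe1 on the same strand, stood at 27.3, 23.8 and 28.7 CPM in stimulated WT and 2.76, 1.51 and 4.24 CPM in stimulated iNOS KO, a log2 difference of −3.20 ± 0.22 (adjusted p = 2.3e-09). Ccbe1 was also lower there, by 4.67 on the log2 scale.

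Peg13, an imprinted lncRNA inside Trappc9, had log2 changes of opposite sign in the genotypes. It went from 7.58, 6.56 and 7.81 CPM to 14.7, 15.7 and 13.03 CPM in WT, a log2 change of 0.98 ± 0.13 that lay just under the fold limit, and fell from 8.04, 7.42 and 5.81 CPM to 3.02, 3.6 and 3.28 CPM in iNOS KO, by 1.10 ± 0.16. The responses differed by −2.09 ± 0.20 (adjusted p = 4.33e-07). Trappc9 changed by a log2 of 0.25 in WT (adjusted p = 0.0513). The list of 12 imprinted lncRNAs had 2 members in the set, Peg13 and Kcnq1ot1.

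Without stimulation, 2 of 155 lncRNAs differed between iNOS KO and WT, a share of 1.29% where 1.66% of all genes differed. Gm17749 was higher by a log2 of 1.13 ± 0.08 (adjusted p = 1.95e-07). Gm13571, which lies across Ly75 on the opposite strand, stood at 0.399, 0.612 and 0.352 CPM in unstimulated WT and at 0.0481, 0 and 0 CPM in unstimulated iNOS KO, 27.8-fold lower with a counting interval of 4.6 to 1143. After stimulation it stood at 27.9, 30.2 and 33.6 CPM in WT and 41.3, 37.8 and 45.5 CPM in iNOS KO. The responses of Gm13571 differed by 4.73 ± 0.69 (adjusted p = 3.61e-05), a value that rests on a single count in unstimulated iNOS KO.

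A 12-gene list of lncRNAs with a known place in innate immunity had 4 members in the set, Gm16685, Mir155hg, Ptgs2os2 and Morrbid, and the other 8 were under 5 CPM. These 4 rose in WT and in iNOS KO, where 19.7% and 14.0% of all genes were called higher. Gm16685, Mir155hg and Morrbid reached a group mean of 5 CPM only in stimulated groups, and Ptgs2os2 was also far higher there, so the rule itself favoured that direction and the count supports nothing. In RAW264.7 WT, which the rule did not use, 3 of the 4 rose, where 18.5% of all genes did. Ptgs2os2, named after the cyclooxygenase-2 gene Ptgs2, which lies 50816 bases away, stood at 4.44, 5.11 and 4.05 CPM in unstimulated WT, 84.8, 79.9 and 82.7 CPM in stimulated WT and 73.1, 51.2 and 84.9 CPM in stimulated iNOS KO. The stimulated genotypes overlapped and differed by −0.24 ± 0.13 (adjusted p = 0.147). The log2 change on stimulation was 4.18 ± 0.16 in WT, 4.38 ± 0.17 in iNOS KO and 4.32 ± 0.70 in RAW264.7 WT. Morrbid, known to prolong the life of short-lived myeloid cells, rose by 2.02 ± 0.15 in WT and 1.26 ± 0.15 in iNOS KO, a difference of responses of −0.75 ± 0.22 (adjusted p = 0.0126). In RAW264.7 its log2 change was 0.62 ± 0.58 in WT (adjusted p = 0.439).

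Gm36043 lies across Cd274, the gene of the checkpoint ligand PD-L1, on the opposite strand. It stood at 0.548, 0.612 and 0.411 CPM in unstimulated WT, 74.2, 41.3 and 40.3 CPM in stimulated WT and 15.2, 8.58 and 17.1 CPM in stimulated iNOS KO, where the groups did not overlap. The log2 change was 6.60 ± 0.35 in WT and 4.65 ± 0.37 in iNOS KO, and stimulated iNOS KO differed from stimulated WT by −1.92 ± 0.23 (adjusted p = 2.17e-06). Cd274 rose by 7.05 in WT and differed by −2.14 between the stimulated genotypes on the same scale.

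The RefSeq promoters (GRCm38.p6, 250 bases before to 50 after the start) of Ptgs2os2 and Gm36043 are printed as examples of lncRNAs that rose in all 4 comparisons of stimulated with unstimulated cells, chosen after their values were seen, with the matches to searched motifs in capitals. The motifs were searched on both strands. Over 32851 promoters, the interferon-stimulated response element (ISRE, GAAA and GAAA spaced by any pair of bases) was found in 3.44%, the AP-1 element TGACTCA in 5.2%, the cyclic AMP element TGACGTCA in 1.79%, the antioxidant element TGACNNNGC in 12.4% and the NF-κB motif in 6.93%. The Ptgs2os2 window held an ISRE, and the Gm36043 window held an AP-1 element inside a match to the antioxidant element. A match gives letters in a window, not a bound site. Of the 155 lncRNAs 82 had an entry, too few for a share over the set.
Ptgs2os2 (chr1:150164899-150165198, − strand): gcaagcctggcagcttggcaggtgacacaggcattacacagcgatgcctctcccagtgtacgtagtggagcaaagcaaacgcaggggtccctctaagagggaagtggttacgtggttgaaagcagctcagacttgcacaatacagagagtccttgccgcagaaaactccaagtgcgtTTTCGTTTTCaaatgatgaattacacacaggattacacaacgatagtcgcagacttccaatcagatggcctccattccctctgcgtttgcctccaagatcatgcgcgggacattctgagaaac
Gm36043 (chr19:29384902-29385201, − strand): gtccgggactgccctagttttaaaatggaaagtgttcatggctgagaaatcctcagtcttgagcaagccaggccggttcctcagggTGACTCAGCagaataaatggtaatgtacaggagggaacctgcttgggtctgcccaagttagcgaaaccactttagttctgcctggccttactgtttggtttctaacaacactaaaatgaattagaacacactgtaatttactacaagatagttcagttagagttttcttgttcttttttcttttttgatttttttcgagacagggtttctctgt

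The snoRNA host genes divided. Of 22 listed hosts 12 were in the set, and the spliced transcripts of many such hosts are known to be degraded once ribosomes read them. In WT, 2 of the 12 rose and 5 fell on stimulation, with a median log2 change of −0.70, and in iNOS KO 0 rose and 2 fell, with a median of −0.53. Of all genes 19.7% rose and 15.7% fell in WT, and 14.0% rose and 8.78% fell in iNOS KO. Without stimulated iNOS KO replicate B, 1 host fell in iNOS KO. By adjusted p alone, with no fold limit, 8 of 12 fell in each genotype, where 28.5% of all genes fell in WT and 24.6% in iNOS KO.

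Zfas1 lies across Znfx1 on the opposite strand, and reads of such a pair may be shared between them. Znfx1 rose by 2.39 on the log2 scale in WT and differed by −0.43 between the stimulated genotypes. Zfas1 stood at 15.0, 16.0 and 13.1 CPM in unstimulated WT, 52.4, 65.6 and 67.6 CPM in stimulated WT, 19.7, 16.4 and 16.4 CPM in unstimulated iNOS KO and 18.7, 15.4 and 17.9 CPM in stimulated iNOS KO. Only the stimulated WT libraries were high. The log2 change was 2.07 ± 0.12 in WT and −0.01 ± 0.12 in iNOS KO, with a difference of responses of −2.08 ± 0.17 (adjusted p = 4.26e-08). Snhg12 followed the same order, at 7.43, 5.73 and 7.45 CPM in unstimulated WT, 16.0, 13.6 and 15.1 CPM in stimulated WT and 6.04, 6.85 and 4.95 CPM in stimulated iNOS KO, and its responses differed by −1.64 ± 0.21 (adjusted p = 1.14e-05).

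Snhg20, Snhg15 and Snhg4 went the other way. Snhg20 stood at 15.6, 16.5 and 17.3 CPM in unstimulated WT, 5.82, 5.94 and 7.49 CPM in stimulated WT and 13.2, 16.4 and 16.8 CPM in stimulated iNOS KO. Its log2 change was −1.36 ± 0.13 in WT and 0.02 ± 0.12 in iNOS KO, and the responses differed by 1.38 ± 0.18 (adjusted p = 8.71e-06). Snhg15 fell from 14.0, 12.2 and 13.6 CPM to 3.6, 3.58 and 5.55 CPM in WT and stood at 9.32, 11.5 and 8.83 CPM in stimulated iNOS KO, a difference of responses of 1.11 ± 0.23 (adjusted p = 0.00117). Snhg4 fell by 2.05 ± 0.24 in WT, with −0.75 ± 0.19 in iNOS KO and a difference of 1.30 ± 0.31 (adjusted p = 0.00323). A protein-coding gene model of the same name overlaps it on the same strand and changed by −0.46 in WT (adjusted p = 0.638). Reads may be shared between the models, so the values of Snhg4 are uncertain.

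Snhg5 fell in both genotypes, by 1.14 ± 0.16 in WT and 1.33 ± 0.16 in iNOS KO, and the difference of the responses was −0.19 ± 0.22 (adjusted p = 0.577). Gas5, a growth-arrest host transcript, stood at 30.0, 32.2 and 26.4 CPM in unstimulated WT and 24.4, 18.2 and 18.2 CPM in stimulated WT, a log2 change of −0.54 ± 0.20 (adjusted p = 0.027, under the fold limit). In iNOS KO it went from 44.5, 39.5 and 44.7 CPM to 23.1, 10.7 and 23.1 CPM, where it fell by 1.17 ± 0.20 (adjusted p = 8.99e-05), with replicate B the lowest. Across the set, 16 lncRNAs contained an annotated snoRNA or scaRNA gene, including 4 outside the list, 1110038B12Rik, 2410006H16Rik, Gm15832 and ENSMUSG00000120369. Of these 16, 3 rose and 7 fell in WT, where 19.7% of all genes rose and 15.7% fell. In iNOS KO 1 rose and 2 fell, where 14.0% of all genes rose and 8.78% fell.

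**Figure D3:**
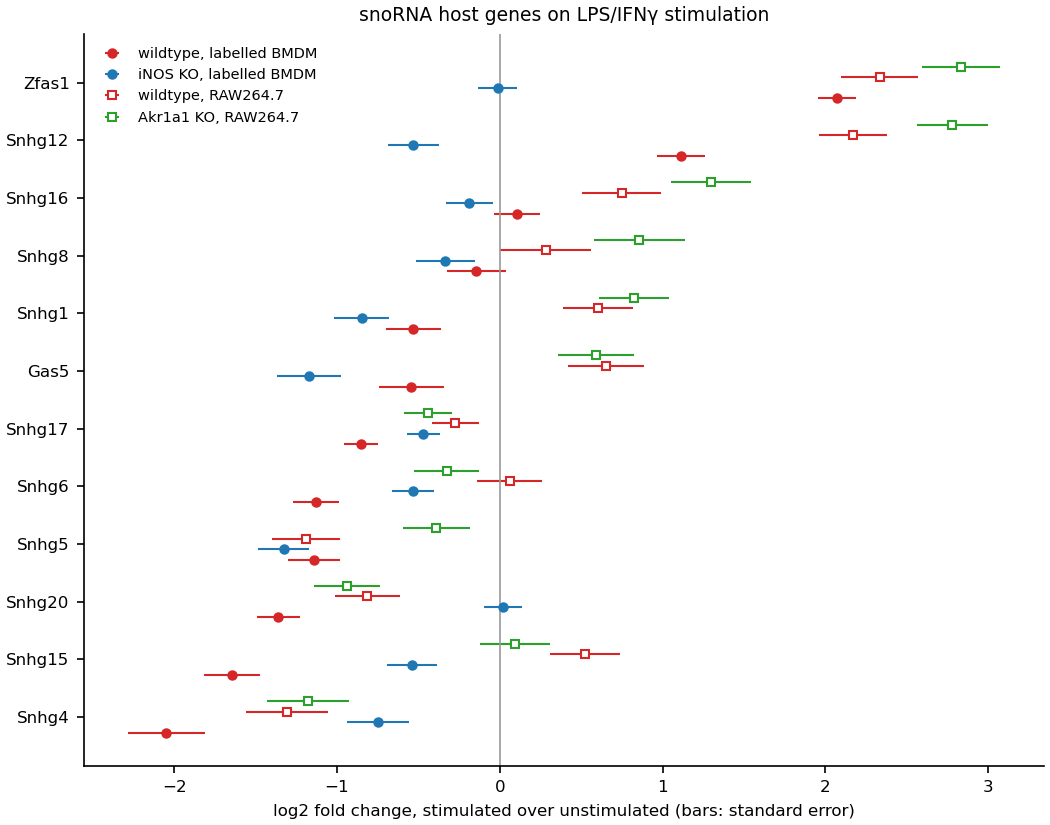
Log2 change on stimulation (x axis, bars are SE) of the 12 snoRNA hosts in WT and iNOS KO labelled BMDM (filled) and in RAW264.7 WT and Akr1a1 KO (open). Zfas1 is at 2.07 or above in 3 of the 4 cell groups and at −0.01 in iNOS KO, and Gas5 lies below 0 in the first experiment and above 0 in RAW264.7.

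Many snoRNA hosts are known to begin with a C followed by pyrimidines, the start of growth-controlled 5′ terminal oligopyrimidine transcripts. Starts are printed for 5 of the hosts described above, as the 15 bases before the RefSeq start in lower case and the first 15 transcribed bases in capitals.
Zfas1: ttgactgcgccccggGCGGCCGCAGGTCTC
Snhg12: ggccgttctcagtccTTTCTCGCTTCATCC
Snhg15: cgctgctgtgaccgtAACTTTAAGCACACG
Snhg20: cttcagttccggccgGAAGTGCATTTGCAG
Gas5: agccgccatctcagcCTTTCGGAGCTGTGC
Of 12 annotated starts of the 10 hosts with an entry, 2 began exactly with a C and 4 pyrimidines, or 16.7% against 2.51% of all 32851 promoters, and 3 had such a run within 5 bases of the start, or 25.0% against 18.3%. The Gas5 start shown is one of the 2 exact matches, and the other annotated Gas5 start is not one. These shares describe annotated starts on GRCm38.p6 and were not tested.

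Among the nuclear RNAs, Malat1, which sits in nuclear speckles, was the most abundant lncRNA by mean CPM. It stood at 336, 357 and 334 CPM in unstimulated WT, 1232, 1059 and 948 CPM in stimulated WT, 443, 417 and 404 CPM in unstimulated iNOS KO and 452, 232 and 343 CPM in stimulated iNOS KO. The stimulated WT libraries lay above all the others, and stimulated iNOS KO replicate B was the lowest. The log2 change was 1.66 ± 0.16 in WT (adjusted p = 9.9e-08) and −0.30 ± 0.16 in iNOS KO (adjusted p = 0.126), and the responses differed by −1.96 ± 0.23 (adjusted p = 2.75e-06). RAW264.7 went from 844 and 815 CPM to 3347 and 4308 CPM in WT and from 930.5 and 956 CPM to 3038 and 3611 CPM in Akr1a1 KO. Neat1, the scaffold of paraspeckles, stood at 174, 159 and 160.4 CPM in unstimulated WT and 303, 222 and 222 CPM in stimulated WT, a log2 change of 0.60 ± 0.15 (adjusted p = 0.00289, under the fold limit). In iNOS KO its change was −0.17 ± 0.15 (adjusted p = 0.38), and the responses differed by −0.77 ± 0.22 (adjusted p = 0.0105). Poly(A) selection favours some forms of Malat1 and Neat1, so these levels describe the captured transcripts. Of the 7 genes on the nuclear body and X-inactivation list 3 were in the set. All 3, Malat1, Neat1 and Firre, had a lower response in iNOS KO, where 15.4% of all genes and 36.8% of the set did. Norad, a cytoplasmic binder of Pumilio proteins from the growth and p53 list, changed by −0.11 ± 0.11 in WT (adjusted p = 0.397), and none of that list's 3 members was called in WT. A list of 3 lncRNA models that overlap ribosomal RNA had no member in the set.

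In RAW264.7 WT, 153 of the 155 lncRNAs could be tested, and 85 changed on stimulation at an adjusted p under 0.05 without a fold limit, 63 higher and 22 lower. Of all genes 37.7% changed, 18.5% higher and 19.2% lower, and 57.9% of protein-coding genes of at least 5 CPM. The rule used no RAW264.7 library. In Akr1a1 KO 84 changed, 62 higher and 22 lower, where 39.2% of all genes did, 19.8% higher and 19.4% lower. Without both unstimulated libraries of conflicting labels 57 and 49 lncRNAs were called. By level in the first experiment, 27 of the 34 tested lncRNAs that had reached 5 CPM only when stimulated rose in RAW264.7 WT and none fell, and 8 of the 15 that had reached it only without stimulation fell and none rose. Of the 74 at 5 CPM in all groups, 27 rose and 11 fell. The largest rises in RAW264.7 WT were in ENSMUSG00000120851, 498-fold higher with a counting interval of 137 to 4125, Gm46189, 282-fold higher with an interval of 49.8 to 11212, and Gm42743 at a log2 change of 6.92 ± 0.86, beside Gm16685 and Gm50419. Without unstimulated WT replicate B, Gm46189 had an adjusted p of 0.057, and 0.0653 without both libraries of conflicting labels. The largest falls were in ENSMUSG00000120992 at −4.80 ± 0.29, 4933404O12Rik at −3.64, Gm29340 at −3.28, 9930014A18Rik at −3.23 and Ttc39aos1 at −3.05. In Akr1a1 KO the largest rises were in the same 5 lncRNAs as in RAW264.7 WT, and the largest falls in ENSMUSG00000120992 at −5.55 ± 0.31, 4933404O12Rik at −3.15, Ttc39aos1 at −3.13, Gm29340 at −2.83 and Gm17201 at −1.63. Gm50419 in Akr1a1 KO had an adjusted p of 0.0525 without unstimulated Akr1a1 KO replicate B and 0.0564 without both libraries of conflicting labels.

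The WT responses of the experiments, which share no library, were set side by side. Calls in the first experiment required a log2 change over 1 and those in RAW264.7 did not. Of 153 lncRNAs, 48 were called higher in both, which is 72.7% of those higher in the first and 76.2% of those higher in the second. Another 14 were lower in both, 53.8% and 63.6%. Over all genes the shares were 53.7% and 50.0% higher, and 66.7% and 51.1% lower. Among protein-coding genes of at least 5 CPM they were 76.1% and 43.9% higher, and 83.0% and 50.0% lower. The sign of the log2 change was the same for 76.5%, against 79.9% of protein-coding genes of at least 5 CPM. Across the lncRNAs Pearson's r of the log2 changes was 0.851 and Spearman's rho 0.74, a description over genes, which are not independent replicates. Over those protein-coding genes r was 0.838 and rho 0.77. The difference between the WT responses passed its own test for 51 lncRNAs (adjusted p under 0.05, absolute log2 difference over 1), 24 higher and 27 lower in the first experiment, where 13.8% of all genes passed, 7.2% higher and 6.63% lower. Cell type, IFNγ dose, library preparation and run cannot be told apart in that difference.

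**Figure D4:**
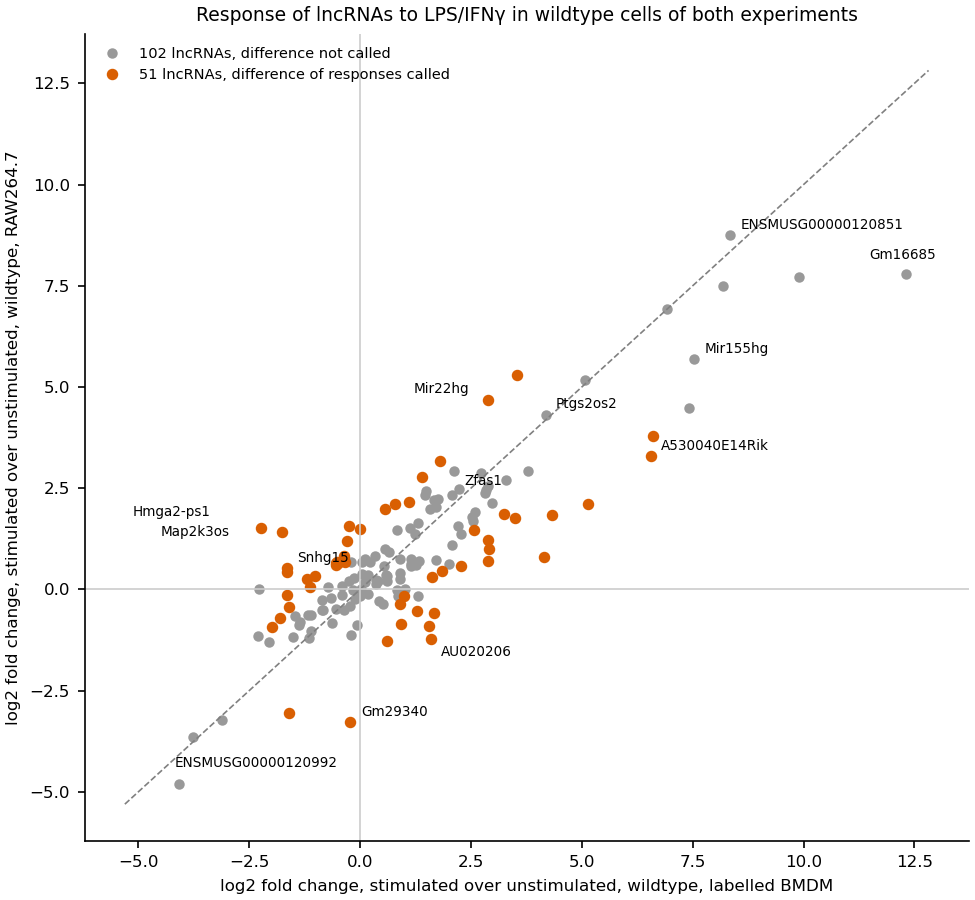
Log2 change on stimulation of WT cells for 153 lncRNAs, in the libraries labelled BMDM (x axis) and in RAW264.7 (y axis), with the 51 whose responses differed in colour and equal responses on the dashed line. Hmga2-ps1 and Map2k3os lie in the upper left and AU020206 in the lower right, and most others share a sign.

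Of the 51 lncRNAs whose WT responses differed, 3 were called in opposite directions in the experiments. Hmga2-ps1 fell by 2.23 ± 0.13 in the first experiment and rose in RAW264.7 from 14.2 and 16.4 CPM to 32.8 and 54.4 CPM, by 1.51 ± 0.25, with a difference of −3.82 ± 0.27 (adjusted p = 1.86e-08). Map2k3os, head to head with the stress kinase gene Map2k3, went from 11.8, 9.34 and 8.57 CPM to 2.84, 3.04 and 2.84 CPM in the first experiment and from 3.85 and 2.86 CPM to 8.85 and 8.95 CPM in RAW264.7, a difference of −3.29 ± 0.29 (adjusted p = 2.32e-07). AU020206 went from 34.8, 34.5 and 33.5 CPM to 106, 101 and 103 CPM in the first and from 91.1 and 122 CPM to 36.6 and 54.1 CPM in RAW264.7, a difference of 2.74 ± 0.22 (adjusted p = 7.39e-08). In all 3 the libraries of the groups compared did not overlap, and the Akr1a1 KO cells moved as RAW264.7 WT did, by 1.21, 1.76 and −0.80 on the log2 scale.

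Of the 12 snoRNA hosts, 5 had a lower WT response in the first experiment than in RAW264.7 and 0 a higher one, where 6.63% of all genes were lower, and 7 did not pass. The 5 were Snhg15, Gas5, Snhg12, Snhg1 and Snhg6. Snhg15, which fell in the first experiment, stood at 19.4 and 23.2 CPM in unstimulated and 30.4 and 30.9 CPM in stimulated RAW264.7 WT, a log2 change of 0.52 ± 0.21 (adjusted p = 0.0893) and a difference of −2.25 ± 0.28 (adjusted p = 1.02e-05). Zfas1 rose from 14.6 and 24.9 CPM to 98.5 and 103 CPM, by 2.33 ± 0.24, with a difference of −0.34 ± 0.23 (adjusted p = 0.311). Gas5 stood at 64.3 and 84.0 CPM before and 102 and 131 CPM after, a difference of −1.28 ± 0.34 (adjusted p = 0.0095). Of the 12 hosts, 3 rose and 3 fell in RAW264.7 WT, where 18.5% of all genes rose and 19.2% fell. In Akr1a1 KO 5 rose and 3 fell, where 19.8% of all genes rose and 19.4% fell.

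Few of the lncRNAs were called between Akr1a1 KO and WT. In stimulated cells 2 of 153 differed, or 1.31%, where 0.286% of all genes did, and in unstimulated cells 4 differed, or 2.61%, where 0.583% did. Gm38414 had no count in the 4 WT libraries and stood at 43.7 and 62.3 CPM in unstimulated and 19.3 and 29.0 CPM in stimulated Akr1a1 KO, at least 1137-fold and at least 253-fold higher. In the first experiment the same gene stood at 15.3, 18.3 and 15.8 CPM in unstimulated WT and 3.19, 3.78 and 3.12 CPM in stimulated WT. 9930014A18Rik was the reverse, at 8.06 and 10.51 CPM in unstimulated WT and with no count in the 4 Akr1a1 KO libraries, at least 138-fold lower without stimulation. In each case every library of one genotype was at 0. The part of differences between clones in these values was not tested. Without replicate B of unstimulated WT or of unstimulated Akr1a1 KO the unstimulated difference of 9930014A18Rik had an adjusted p of 0.0741 or 0.0785.

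Gm12606 stood at 7.19 and 7.78 CPM in unstimulated WT against 1.81 and 1.53 CPM in Akr1a1 KO, and at 18.7 and 19.9 CPM against 4.62 and 4.14 CPM in stimulated cells. The log2 difference was −2.18 without and −2.14 with stimulation. Without stimulation it lost its call when any of 3 libraries was left out, unstimulated WT replicate B or either unstimulated Akr1a1 KO library, with adjusted p from 0.0732 to 0.127. With stimulation it did so without either of the stimulated Akr1a1 KO libraries, with adjusted p of 0.115 and 0.108. ENSMUSG00000120697 was higher by 1.71 in unstimulated Akr1a1 KO, a call lost when any of 6 libraries was left out, namely those of every group but stimulated WT, with adjusted p from 0.0742 to 0.205. Without the libraries of conflicting labels none of the 4 unstimulated differences passed, with Gm38414 at an adjusted p of 0.0701, and Gm38414 alone passed in stimulated cells. The response to stimulation differed by genotype for 0 of 153 lncRNAs by edgeR, where 0.0204% of all genes did. At an unadjusted p under 0.05 there were 14, and DESeq2 called 3. Between WT and Akr1a1 KO, which share no library, the stimulation responses had the same sign for 84.3%, with Pearson's r of 0.941 across the lncRNAs. Over protein-coding genes of at least 5 CPM these values were 90.8% and 0.959.

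The lncRNAs were last compared with a protein-coding partner. For those without overlap it was the nearest gene. For the others it was the overlapping or head to head gene of highest mean CPM in the first experiment. In WT of the first experiment, Pearson's r between the log2 changes of lncRNA and partner was 0.661 over 50 opposite-strand overlaps, 0.906 over 9 same-strand overlaps, 0.665 over 20 head to head pairs and 0.275 over 64 pairs with no overlap. By rank, head to head pairs and pairs without overlap stood close together, with Spearman's rho of 0.53, 0.933, 0.355 and 0.332 in that order. Where both were called, the direction was the same in 16 of 16 opposite-strand, 4 of 4 same-strand, 5 of 6 head to head and 17 of 22 pairs without overlap. For the difference between stimulated iNOS KO and WT, r was 0.397, 0.733, 0.787 and 0.078 and rho 0.342, 0.517, 0.597 and 0.101 in that order. In RAW264.7 WT r was 0.394, 0.931, 0.738 and 0.317 and rho 0.481, 0.857, 0.523 and 0.362. The points share libraries, and overlapping pairs may share reads, whose part in these values was not tested. The same-strand pairs include Snhg4 and the protein-coding gene model of that name. Beside the falls of Map2k3os and Hmga2-ps1 in WT, Map2k3 changed by −0.29 and Sdccag8 by 0.76 on the log2 scale, neither past the fold limit.

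**Figure D5:**
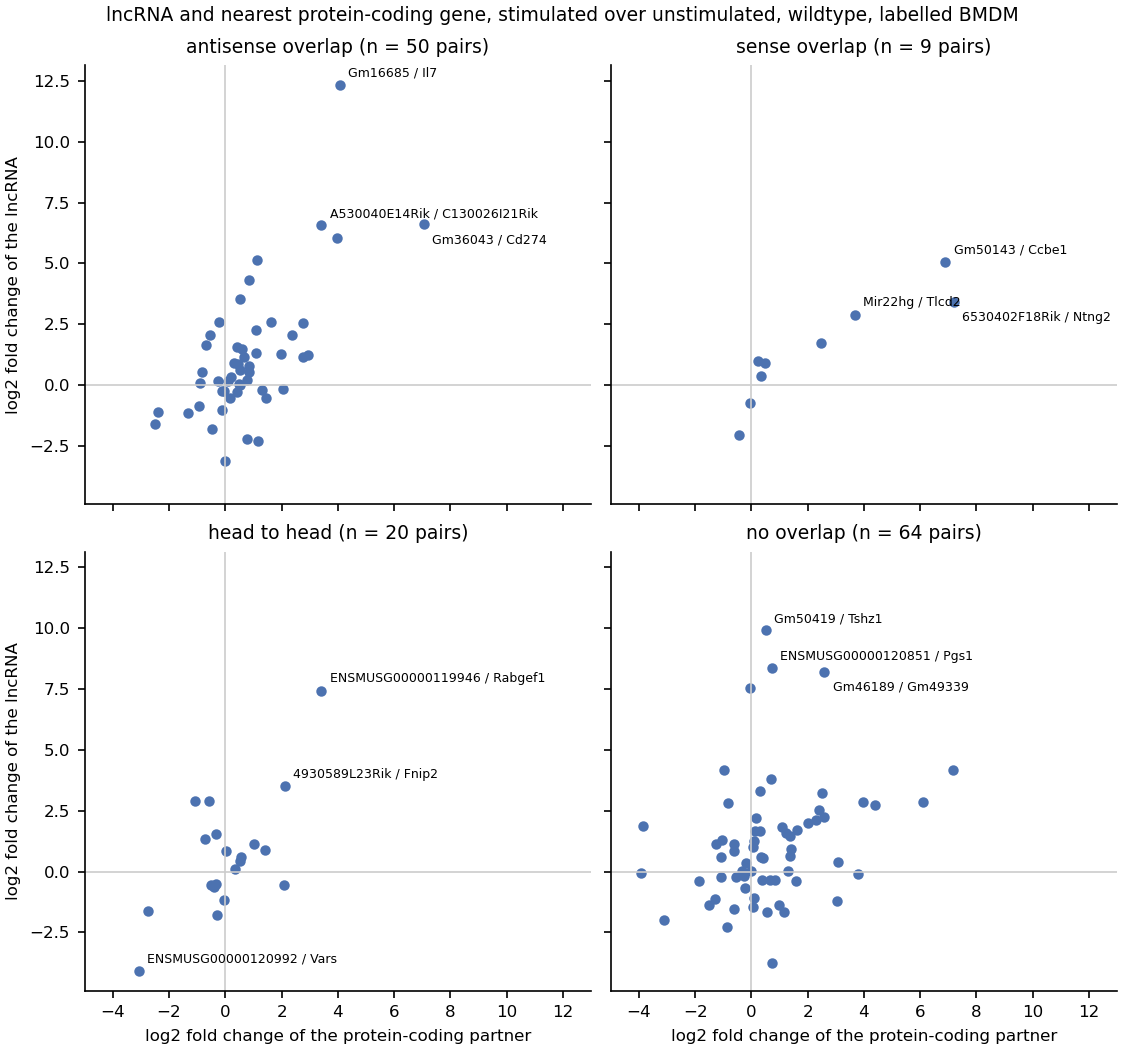
Log2 change on stimulation of WT in the first experiment for each lncRNA (y axis) and its protein-coding partner (x axis), in 4 panels by position. Overlapping and head to head pairs mostly lie in the upper right or lower left, whereas pairs without overlap scatter, with Gm50419 and ENSMUSG00000120851 rising by more than 8 beside partners that changed by less than 1.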

How the data were processed

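RNA-seq counts were deposited by the authors as 2 tables of whole reads per gene, one per experiment. Per the labels, libraries were poly(A)-enriched, and the submitters' processing notes name CASAVA, STAR and mm10. File coordinates name no build: of 131 lncRNAs with an identifier in GENCODE GRCm38, 1 had the same start, so file coordinates are not printed. Totals were 15072109 to 18878107 and 11876719 to 44583327 counts, and intervals cover counting error only.

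Genes with at least 10 counts in total (18691 and 19569) were fitted per file with edgeR 4.0.16 (R 4.3.3; TMM, quasi-likelihood F test, 2-sided, 1 mean per group) with Benjamini-Hochberg adjustment; a joint fit of 17398 genes tested the WT responses against each other. Calls in the iNOS experiment and the joint fit required a log2 change beyond 1 in either direction beside an adjusted p below 0.05, and tests of the Akr1a1 experiment an adjusted p alone, both after the study, which used DESeq2. The iNOS difference of responses, not among the study's stated contrasts, was called by adjusted p alone. Fits were checked on simulated counts. Figures used matplotlib 3.10.9. Named lncRNAs were those on the lists and the 5 largest called changes per direction and comparison without overlap between groups; others, such as partners and the lncRNAs called in opposite directions, were named after their values were seen. The set and its lists were chosen with earlier results of these data known. Alternatives were DESeq2 1.42.0, its size factors, no count filter, only the groups compared, other fold limits, a replicate block, each library left out, and both libraries of conflicting labels left out.

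Deviations from group means of libraries with the same replicate letter were correlated over genes: for stimulated and unstimulated iNOS KO all 3 pairs exceeded 0.1, and there the block left 65 calls; in the other comparisons of the iNOS experiment they did not. With 2 libraries a group the pairs of a comparison give 1 correlation, which was 0.438 for stimulation of RAW264.7 WT and 0.102 for that of Akr1a1 KO and negative between genotypes. No source says that a letter names a clone, so these libraries were not treated as paired. Of the 2 tables, columns of no sample numbered 0.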

Additional observations from a re-analysis of the deposited data

Results flagged for a closer look

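A test of the difference between the stimulation responses of iNOS KO and WT passed for 89 of 155 lncRNAs. The difference, iNOS KO minus WT on the log2 scale, was 4.73 for Gm13571, 4.10 for ENSMUSG00000120992, 2.21 for 6530402F18Rik, 2.08 for Hmga2-ps1 and 2.08 for 4933404O12Rik. It was −3.59 for Gm42743, −2.96 for Gm46189, −2.09 for Gm36684, −2.09 for Peg13 and −2.08 for Zfas1. The value for Gm46189 had an SE of 0.79. Its stimulated genotypes differed by −1.03, so part of −2.96 came from the unstimulated libraries, where its level was low. The same test between Akr1a1 KO and WT by edgeR passed for 0 of 153, with 14 at an unadjusted p under 0.05 and 3 by DESeq2.

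A test of the difference between the WT responses of the experiments, labelled BMDM minus RAW264.7, passed for 51 of 153 lncRNAs. The log2 difference was 3.36 for A530040E14Rik, 3.29 for ENSMUSG00000121163, 3.01 for 4933412E12Rik, 2.98 for Gm29340 and 2.76 for Gm36043. It was −3.82 for Hmga2-ps1, −3.29 for Map2k3os, −2.25 for Snhg15, −2.16 for Gm33370 and −1.89 for 2410006H16Rik. The value for A530040E14Rik was 1.15 (adjusted p = 0.525) without unstimulated RAW264.7 WT replicate B, that for 4933412E12Rik was then 1.75 (adjusted p = 0.0059), and Gm36043 had an adjusted p of 0.0652 without both libraries of conflicting labels.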

How the results depend on the processing

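No named value changed its direction under any alternative run, and of 1432 recomputed values of named lncRNAs 1406 stayed past the threshold and 26 did not, all in RAW264.7 or between the experiments; where not given, the cause was not tested. Without a fold limit the calls were 112 for stimulation of iNOS KO, 105 for stimulated and 11 for unstimulated iNOS KO against WT, and with a limit of 1 the iNOS difference of responses gave 50; fewer or more calls follow from the limit itself. Without both libraries of conflicting labels stimulation of Akr1a1 KO gave 49, and stimulated and unstimulated Akr1a1 KO against WT gave 1 and 0. For stimulated Akr1a1 KO against WT, DESeq2 called 6, no count filter 16 and the groups compared alone 1. For unstimulated cells DESeq2 called 8 and no count filter 17, and for the Akr1a1 difference of responses 3 and 4. Leaving out each library in turn gave 92 to 95 calls for stimulation of WT, 62 to 67 for iNOS KO, 48 to 53 and 2 to 3 for stimulated and unstimulated iNOS KO against WT, and 77 to 94 for the iNOS difference. It gave 63 to 85 for RAW264.7 WT, 56 to 91 for Akr1a1 KO, 1 to 4 and 1 to 5 for stimulated and unstimulated Akr1a1 KO against WT, 0 for the Akr1a1 difference and 47 to 58 between the experiments. A group left with 1 library was assumed to vary like the others. With a replicate block the calls were 94, 65, 53, 2 and 89 in the iNOS experiment, 87, 82, 2, 4 and 0 in the Akr1a1 experiment in the same order, and 51 between the experiments, so the block moved no count by over 1.5 times. With 2 libraries a group, differences of lncRNAs near 0 in RAW264.7 may lie below what these depths can show.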
